A study of Rattus norvegicus with 36 samples.

Results

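Bile duct ligation (BDL), the tying of the common bile duct, is a rodent model of obstructive cholestasis, in which bile cannot leave the liver. Its effect on liver RNA was described here in vitamin A sufficient (VAS) rats. The comparison took 9 of the 36 arrays of the series, chosen by the labels of vitamin A state, operation and injection: 5 livers of VAS rats with BDL and 4 livers of VAS rats with a sham operation. All 9 animals were male Wistar rats and received a daily intraperitoneal injection of vehicle. The series holds 8 groups, vitamin A sufficient or deficient (VAD) before the operation, BDL or sham, and injected with vitamin A (VITA) or vehicle, and the labels call the arrays of a group biological replicates. The sources used here give no age, no time between operation and sampling and no description of the vehicle.

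Bile acids are made from cholesterol in hepatocytes, taken back up from portal blood by transporters of the sinusoidal membrane and pumped into bile at the canalicular membrane. When bile flow is blocked, hepatocytes are known to lower uptake, to change bile acid synthesis and to export bile salts and conjugates back to blood through alternative pumps. Obstruction is also known to bring ductular proliferation, recruitment of leukocytes and activation of the stellate cells that store vitamin A and deposit collagen.

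Each array gave a bead intensity for 22523 probes. After background correction, quantile normalization and a filter on detection (at detection p below 0.01 on at least 4 of the 36 arrays), 9314 genes were tested, and all levels below are normalized log2 intensities. A gene was called where limma's moderated test gave a Benjamini-Hochberg adjusted p below 0.05 over all genes tested. Between 7869 and 8158 probes were detected on the BDL arrays and between 7005 and 7464 on the sham arrays. Arrays of one group correlated at 0.969 to 0.987 and arrays of different groups at 0.936 to 0.965. The first principal component, with 48.8% of the variance, placed the BDL arrays at 17.9 to 31 and the sham arrays at -25.2 to -34.3. The second component, with 15.4%, set apart the arrays of slide 3, BDL replicate 5 at 25.1 and sham replicate 4 at 30.8, against -12.7 to -1.8 for the other arrays. Each slide held arrays of both groups, and all calls within slide 1, 99.8% within slide 2 and 99.3% within slide 3 moved in the direction of the whole comparison.

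Liver was the labelled tissue, and its defining transcripts were near the top of the scale in both groups. Alb, serum albumin, averaged 14.68 ± 0.16 (SD, n = 5) in BDL livers and 14.68 ± 0.26 (SD, n = 4) in sham livers. Ahsg, fetuin A, averaged 14.90 ± 0.08 in BDL livers and 14.87 ± 0.23 in sham livers. Of 24 hepatocyte identity genes tested, none rose and 3 fell, among them Rgn, regucalcin (-1.23 ± 0.29 on the log2 scale, SE, adjusted p = 0.0027), and Apoa2, an apolipoprotein of high density lipoprotein (-0.56 ± 0.17, adjusted p = 0.018). The call of Apoa2 was lost under 5 of 18 settings (adjusted p up to 0.094), among them those without BDL replicate 1, sham replicate 3 and sham replicate 4. The summed linear level of these 24 genes spanned 383826 to 417080 on BDL arrays and 403833 to 424955 on sham arrays. In whole liver RNA, fewer cells of a type and less RNA per cell cannot be told apart.

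Ligation changed 1617 of the 9314 genes tested, which is 17.4%. There were 977 genes higher in BDL livers (10.5% of those tested) and 640 lower (6.87%), and 584 of the calls, 416 higher and 168 lower, were at least 2-fold. The BDL and sham arrays did not overlap for 1781 genes, 19.1% of those tested, and 1305 of these were called. The median log2 difference of all genes was -0.01. When arrays were scaled to a common median in place of quantiles, that median moved to 0.15, and 82.1% of 1347 calls were higher in BDL livers, against 60.4% with quantiles, so the count of falls depends on the scaling. For 217 genes called higher, no sham array was above background, and for 30 genes called lower no BDL array was. For these, a fold change is given as a lower bound ("at least"), set against the lowest level detected on each array.

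**Figure D1:**
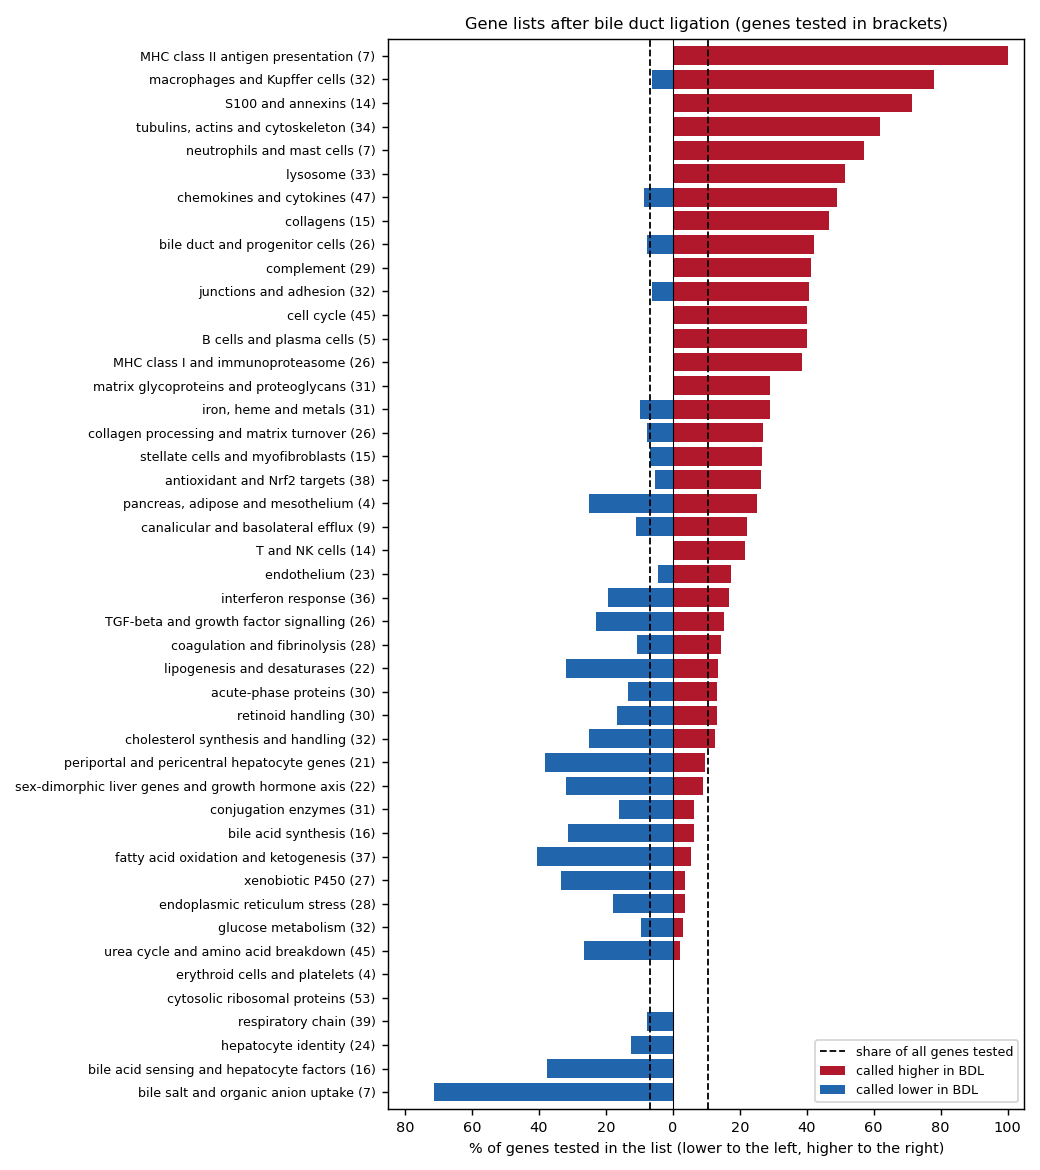
Share of the tested genes of each of 45 gene lists called higher (red, to the right) or lower (blue, to the left) in BDL livers than in sham livers, in percent, with the number tested in brackets. The dashed lines mark 10.5% and 6.87%, the shares of all genes tested. All 7 genes of class II antigen presentation were called higher, and 5 of 7 uptake carriers were called lower.

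The genes of bile acid synthesis split at the first and later steps. Cyp7a1, the rate-limiting enzyme of the classical pathway, rose 11.8-fold (3.56 ± 0.54, adjusted p = 1.3e-05). It stood at 12.57, 12.62, 12.67, 12.30 and 13.12 in the 5 BDL livers, against 9.56, 8.16, 10.09 and 8.58 in the 4 sham livers. Every BDL liver was above every sham liver, and the sham livers spread more widely than the BDL livers. Cyp8b1, the sterol 12-alpha-hydroxylase that directs synthesis to cholic acid, was 29.8-fold lower in BDL livers (-4.90 ± 0.71, adjusted p = 5e-06), with 7.32, 6.84, 8.17, 8.02 and 8.27 in BDL livers and 11.42, 12.92, 13.04 and 13.09 in sham livers. The groups did not overlap, although sham replicate 1 lay well below the other sham livers. Enzymes of side-chain shortening in the peroxisome also fell: Acox2, the branched-chain acyl-CoA oxidase, by 1.35 ± 0.26 (adjusted p = 0.00025), Amacr, the racemase, by 1.14 ± 0.29 (adjusted p = 0.0044), and Scp2, the sterol carrier and thiolase, by 1.07 ± 0.18 (adjusted p = 5.4e-05). In all, 1 of 16 synthesis genes tested rose and 5 fell, with a median of -0.26. Cyp27a1, which starts the alternative pathway, was not called and averaged 12.81 ± 0.19 in BDL livers and 12.55 ± 0.17 in sham livers (adjusted p = 0.34). Neither were Hsd3b7 (-0.24, adjusted p = 0.34), the next enzyme of the pathway, Hsd17b4 (-0.16, adjusted p = 0.36), of side-chain oxidation, nor Slc27a5 (-0.49, adjusted p = 0.069), the bile acyl-CoA synthetase.

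Among 16 nuclear receptors, hepatocyte transcription factors and their partners, none rose and 6 fell, with a median of -0.45, and with median scaling 3 fell. Klb, the co-receptor through which intestinal fibroblast growth factor represses Cyp7a1, was at 5.16, 4.71, 5.02, 5.25 and 5.17 in BDL livers, where no array was above background, against 6.63, 6.33, 6.96 and 6.37 in sham livers. It was at least 2.15-fold lower in BDL livers (adjusted p = 7.1e-05), and the groups did not overlap. Hnf4a, a master regulator of hepatocyte genes, fell by 1.12 ± 0.23 (adjusted p = 0.0007). Cebpa, another hepatocyte factor, fell by 1.04 ± 0.27 (adjusted p = 0.0067), a call that median scaling ended (adjusted p = 0.093). Nr1h4, the bile acid receptor FXR, fell by 0.86 ± 0.28 (adjusted p = 0.028). This call was lost under 9 of 18 settings, and without the slide 3 arrays its adjusted p was 0.12. Onecut1, a factor of hepatocyte and bile duct development, had 9.50, 7.98, 8.16, 8.31 and 7.94 in BDL livers and 10.90, 8.63, 10.66 and 10.76 in sham livers. Its groups overlapped, and its call (adjusted p = 0.028) was lost under 8 of 18 settings, among them without slide 3 (adjusted p = 0.1). Nr0b2, the repressor SHP that FXR induces, was looked up after its values were seen and was not called: it had 6.63, 8.49, 8.13, 7.86 and 7.89 in BDL livers and 6.95, 7.82, 6.68 and 7.52 in sham livers (adjusted p = 0.44).

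Uptake carriers of the sinusoidal membrane were lower after ligation in 5 of 7 cases, with a median log2 difference of -0.71 over the list. Slc10a1, the sodium-dependent bile salt carrier NTCP, had 11.77, 12.28, 12.36, 12.77 and 12.62 in BDL livers and 13.16, 13.19, 13.36 and 13.56 in sham livers. It fell by 0.95 ± 0.24 (adjusted p = 0.0052), without overlap of the groups. Slc22a8, the organic anion transporter OAT3, was 10.2-fold lower in BDL livers (-3.34 ± 0.38, adjusted p = 1.3e-07), where 2 of 5 arrays detected it. Slco2b1, an organic anion transporting polypeptide, fell by 0.71 ± 0.18 (adjusted p = 0.004), and Slc22a7, the transporter OAT2, by 0.52 ± 0.16 (adjusted p = 0.018). The call of Slco2b1 was lost with median scaling (adjusted p = 0.051), and that of Slc22a7 under 3 of 18 settings, without BDL replicate 5 (adjusted p = 0.075), without sham replicate 2 (0.083) and with only these 9 arrays fitted (0.059). Slco1b2, another such polypeptide, was lower by -0.53 ± 0.29 on the log2 scale and was not called (adjusted p = 0.24).

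The pumps moved in both directions. Abcb1b, a P-glycoprotein (MDR1B) that exports amphipathic drugs, was at 11.48, 11.01, 10.91, 10.16 and 11.02 in BDL livers, against 5.71, 4.49, 5.15 and 5.67 in sham livers, of which 1 was above background. This was a 50.7-fold rise (5.66 ± 0.42, adjusted p = 8.4e-12), and the gap between the groups was several times the spread within either. Its size depends on the background step, with 4.48 under normexp and 3.08 in the authors' deposited value table. Abcc3, the basolateral pump MRP3 that returns conjugates to blood, stood at 7.17, 7.91, 8.09, 7.92 and 8.25 in BDL livers and at 5.65, 5.96, 5.81 and 6.20 in sham livers (1.96 ± 0.25, adjusted p = 7.5e-07). Abcg5, one subunit of the canalicular cholesterol exporter, was not above background on any BDL array and was at least 7.88-fold lower in BDL livers (adjusted p = 1.6e-07). Canalicular pumps for bile salts, bilirubin conjugates and phospholipid were not called. Abcb11, the bile salt export pump, was looked up after its values were seen, with a mean of 6.19 ± 0.37 in BDL livers and 6.03 ± 0.35 in sham livers (adjusted p = 0.67). These means lie near the lowest level detected on each array (5.42 to 5.86), so a change of Abcb11 could be missed. Abcc2, the bilirubin conjugate pump MRP2, averaged 10.57 ± 0.71 in BDL livers and 10.30 ± 0.18 in sham livers (adjusted p = 0.66). Abcb4, the phospholipid floppase, averaged 8.81 ± 0.24 in BDL livers and 8.27 ± 0.42 in sham livers (adjusted p = 0.23).

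**Figure D2:**
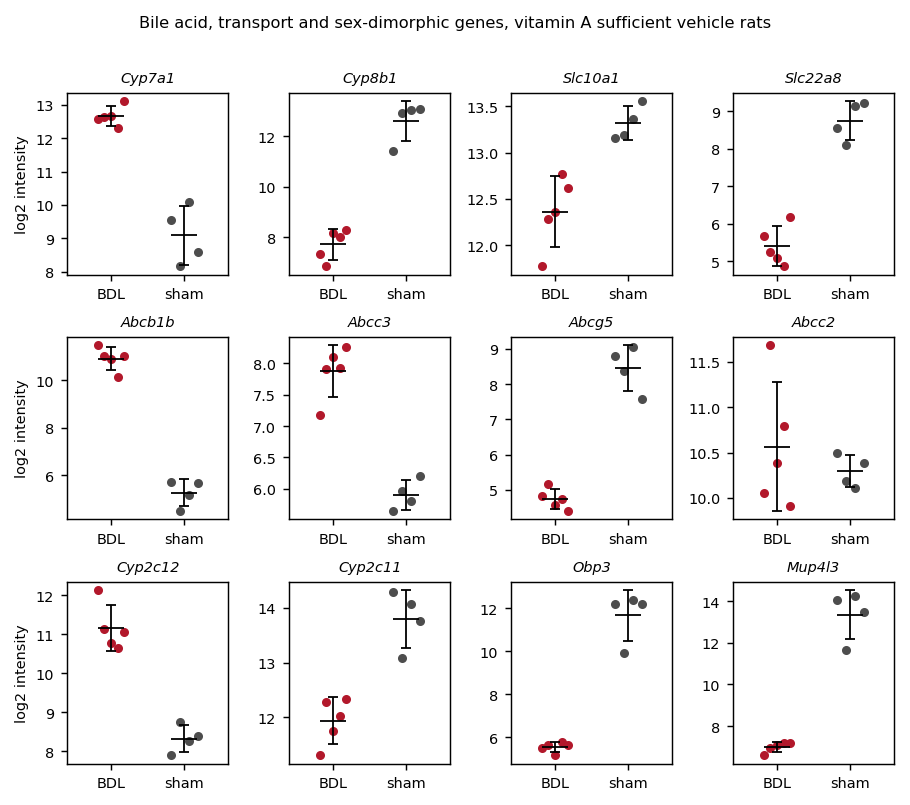
Normalized log2 intensity of 12 genes in each of the 5 BDL livers (red, left) and 4 sham livers (grey, right) of vitamin A sufficient vehicle rats; bars are the mean ± SD, and axes differ between panels. Cyp7a1, Abcb1b, Abcc3 and Cyp2c12 lie higher in every BDL liver than in every sham liver, and Abcc2 overlaps.

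Several male-type liver genes were lower in BDL livers, and the female-type P450 Cyp2c12 was higher. In rats these genes follow the sex-specific pattern of growth hormone secretion. Of the 22 genes of this list tested, 2 rose and 7 fell, with a median of -0.64. Mup4l3, an alpha-2u globulin, a urinary protein that male rat liver makes in quantity, stood at 6.59, 6.93, 7.11, 7.17 and 7.18 in BDL livers and at 14.04, 11.65, 14.26 and 13.47 in sham livers. It was 82.1-fold lower in BDL livers (-6.36 ± 0.53, adjusted p = 1.1e-10), the largest fall among named genes detected in both groups. The related Obp3 had 5.48, 5.62, 5.15, 5.76 and 5.65 in BDL livers and 12.19, 9.89, 12.38 and 12.17 in sham livers, a fall by 6.13 ± 0.45 (adjusted p = 8.4e-12), and sham replicate 2 was the lowest sham liver for both genes. Mup18, which is outside this list, fell by 5.40 ± 0.51 (adjusted p = 2e-09). Mup4 fell by 1.40 ± 0.26 (adjusted p = 0.00014), while Mup5 was not called (0.09, adjusted p = 0.85). Probes of such near-identical families can bind transcripts of several members, which was not tested here.

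Cyp2c12, the female-specific steroid sulfate 15-beta-hydroxylase of rat liver, was at 12.13, 11.13, 10.77, 10.64 and 11.06 in BDL livers, against 7.89, 8.74, 8.26 and 8.40 in sham livers (2.82 ± 0.34, adjusted p = 2.8e-07). Its male counterpart Cyp2c11 was at 11.30, 12.27, 11.75, 12.03 and 12.34 in BDL livers and at 14.29, 13.08, 14.07 and 13.76 in sham livers (-1.86 ± 0.48, adjusted p = 0.0054). Neither gene's groups overlapped. Cyp3a2, another male-biased P450, fell by 1.53 ± 0.48 (adjusted p = 0.024), with overlap. Its call was lost under 7 of 18 settings, among them without slide 3. Male-specific Cyp2c13 was not called at all (-0.66 ± 0.48, adjusted p = 0.41). Sult1e1, the estrogen sulfotransferase, fell by 1.08 ± 0.26 (adjusted p = 0.0028). Outside the sex-dimorphic list, Car3, carbonic anhydrase 3, had 7.72, 9.16, 9.47, 8.20 and 9.46 in BDL livers and 14.81, 13.82, 14.65 and 12.92 in sham livers (-5.25 ± 0.68, adjusted p = 7.5e-07). Dio1, the deiodinase that activates thyroid hormone, is also outside it and fell by 3.02 ± 0.46 (adjusted p = 1.3e-05). Igfbp2, an insulin-like growth factor binding protein of the list, rose by 2.57 ± 0.50 (adjusted p = 0.00031), with 9.55, 10.19, 8.50, 8.21 and 7.02 in BDL livers and 5.79, 6.07, 6.82 and 5.82 in sham livers.

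Of 27 xenobiotic P450 genes tested, 1 rose (Cyp2c12, given above) and 9 fell, and the most abundant ones were not called. Cyp2c55, a P450 outside this list, was at 9.85, 8.89, 8.56, 9.07 and 8.59 in BDL livers and below background in all 4 sham livers. It was at least 9.31-fold higher in BDL livers (adjusted p = 3.3e-11). Cyp1a2, which metabolizes caffeine and estrogens, fell by 2.06 ± 0.46 (adjusted p = 0.0015). Cyp3a9 fell by 2.11 ± 0.45 (adjusted p = 0.00095), and Cyp3a23-3a1, the steroid-inducible CYP3A form of rat liver, by 1.28 ± 0.35 (adjusted p = 0.008). By contrast Cyp2e1, the ethanol-oxidizing P450, averaged 14.54 ± 0.35 in BDL livers and 14.53 ± 0.24 in sham livers (adjusted p = 1). Cyp2c7, Cyp2c23 and Cyp2c22, all above 14 in both groups, were not called either (adjusted p = 0.6, 0.93 and 0.13). Fmo1, a flavin monooxygenase and also outside the list, fell by 2.26 ± 0.56 (adjusted p = 0.004), with a range of 6.22 to 9.17 in BDL livers and 8.97 to 10.72 in sham livers.

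Among conjugation enzymes 2 of 31 tested rose and 5 fell, 22.6% called against 17.4% of all genes tested. The mu-class glutathione transferases Gstm3 and Gstm2 fell by 1.98 ± 0.33 (adjusted p = 4.4e-05) and 1.36 ± 0.37 (adjusted p = 0.0089), whereas Gstm4, below background in every sham liver, was at least 1.46-fold higher in BDL livers (adjusted p = 0.014). The call of Gstm4 was lost in the authors' deposited value table. Sult1c2, a sulfotransferase, fell by 1.22 ± 0.28 (adjusted p = 0.0019). Gstp3, a pi-class transferase outside this list, fell by 2.23 ± 0.46 (adjusted p = 0.00059). Mgst1, the microsomal transferase, averaged 14.66 ± 0.21 in BDL livers and 14.90 ± 0.12 in sham livers and was not called (adjusted p = 0.22).

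Fatty acid oxidation and ketogenesis had one of the larger shares of falls: 15 of 37 genes tested fell and 2 rose, with a median of -0.50, and the summed levels of the list (93517 to 114832 on BDL arrays, 132786 to 149962 on sham arrays) did not overlap. Acat1, the mitochondrial acetoacetyl-CoA thiolase, had 7.10, 7.47, 7.54, 7.03 and 7.80 in BDL livers and 9.66, 9.14, 9.60 and 9.75 in sham livers (-2.15 ± 0.30, adjusted p = 2.6e-06). Cpt1a, which admits long-chain acyl groups to mitochondria, fell by 1.34 ± 0.40 (adjusted p = 0.015), a call lost under 3 of 18 settings, among them without slide 3. Crot and Crat, the peroxisomal and mitochondrial carnitine acyltransferases, each fell by 1.44 (SE 0.32 and 0.29, adjusted p = 0.0012 and 0.00044). Angptl4, an inhibitor of lipoprotein lipase outside this list, fell by 2.14 ± 0.47 (adjusted p = 0.0014). Pdk4, the pyruvate dehydrogenase kinase, fell by 1.46 ± 0.28 (adjusted p = 0.00026), and Plin2, the lipid droplet coat protein, by 1.22 ± 0.28 (adjusted p = 0.0018). Known targets of the fasting receptor PPAR-alpha were not assessed as a set, so no common direction can be read for them. The 2 rises were Ucp2, a mitochondrial carrier, by 1.71 ± 0.22 (adjusted p = 5.9e-07), and Cd36, given below. Fabp1, the liver fatty acid binding protein, was not called (-0.42 ± 0.32, adjusted p = 0.44).

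In lipid synthesis 3 of 22 genes rose and 7 fell, and in cholesterol synthesis and handling 4 of 32 rose and 8 fell; with median scaling these falls were 3 and 5. Scd2, a stearoyl-CoA desaturase little expressed in normal liver, was at 7.92, 8.33, 8.29, 7.60 and 7.98 in BDL livers and 6.12, 5.76, 5.84 and 5.38 in sham livers (2.25 ± 0.22, adjusted p = 3.5e-09). The hepatic form Scd averaged 14.69 in both groups (SD 0.25 in BDL livers and 0.18 in sham livers, adjusted p = 1). Cd36, the scavenger receptor and fatty acid translocase, is of the fatty acid oxidation list and rose by 2.26 ± 0.37 (adjusted p = 3.5e-05). Fabp4, the binding protein of adipocytes and macrophages, rose by 1.74 ± 0.35 (adjusted p = 0.00043, lost in the authors' deposited value table). Insig2, which holds back sterol synthesis, fell by 1.32 ± 0.28 (adjusted p = 0.00079). Abcg1, a cholesterol exporter, rose by 1.00 ± 0.16 (adjusted p = 1.9e-05). Hmgcs1, near the start of sterol synthesis, was not called (0.29 ± 0.34, adjusted p = 0.64).

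Genes that carry and convert vitamin A moved in both directions in these sufficient rats. Of 30 genes of retinoid handling tested, 4 rose and 5 fell (2 with median scaling). Rdh16 and Dhrs4, which interconvert retinol and retinal, fell by 1.88 ± 0.48 (adjusted p = 0.0055) and 0.79 ± 0.17 (adjusted p = 0.0011). Weaker calls were those of Rbp4, the plasma carrier (-0.91 ± 0.31, adjusted p = 0.04), Aldh1a1, which makes retinoic acid (0.80 ± 0.28, adjusted p = 0.048), and Rxra, the partner of the retinoic acid and bile acid receptors (-0.55 ± 0.17, adjusted p = 0.025). Rbp4 was lost under 8 settings, Aldh1a1 under 9 and Rxra under 5 of the 18 settings tried. Ttr, transthyretin, was not called (-0.19, adjusted p = 0.49), and Cyp26b1, a retinoic acid hydroxylase, was below background in both groups (4.98 in BDL livers, 4.91 in sham livers).

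Amino acid breakdown fell in 12 of 45 genes and rose in 1, with a median of -0.35. Oat, ornithine aminotransferase, fell by 1.83 ± 0.29 (adjusted p = 2.3e-05), Hal, histidase, by 1.64 ± 0.27 (adjusted p = 4.4e-05), and Agxt, which detoxifies glyoxylate, by 1.64 ± 0.25 (adjusted p = 1.6e-05). Csad, of taurine synthesis, fell by 1.65 ± 0.42 (adjusted p = 0.0053), with overlap between groups. Cbs, which starts transsulfuration, fell by 1.00 ± 0.19 (adjusted p = 0.00024). Ass1, of the urea cycle, was not called, at 14.15 ± 0.12 in BDL livers and 13.96 ± 0.16 in sham livers (adjusted p = 0.49). Glucose metabolism gave 1 rise and 3 falls among 32 genes, 12.5% called against 17.4% of all genes tested. Ldha, lactate dehydrogenase A, was at -1.18 ± 0.16 on the log2 scale (adjusted p = 1.8e-06), and Pck1 (adjusted p = 0.34), the gluconeogenic carboxykinase, was not called.

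Acute-phase proteins divided. Lcn2, the siderophore-binding protein lipocalin 2, rose 29.8-fold (4.90 ± 0.71, adjusted p = 6e-06), with 14.45, 14.17, 10.52, 12.80 and 11.21 in BDL livers and 8.46, 8.04, 7.13 and 7.31 in sham livers. The BDL livers spanned nearly 4 log2 units, yet all lay above the sham livers. Lbp, which presents endotoxin to CD14, had 13.56, 12.80, 12.01, 12.02 and 11.90 in BDL livers and 9.95, 9.90, 8.91 and 8.98 in sham livers (3.02 ± 0.36, adjusted p = 2.7e-07). Orm1, alpha-1 acid glycoprotein, rose by 1.76 ± 0.28 (adjusted p = 2.6e-05). Cd14, the endotoxin co-receptor itself, fell by 1.31 ± 0.26 (adjusted p = 0.00048), as did Apcs, the serum amyloid P component, by 0.80 ± 0.11 (adjusted p = 3.1e-06). In total 4 of 30 rose and 4 fell, and the median of 0.03 turned to -0.13 with median scaling. Hp, haptoglobin, and Fgg, a fibrinogen chain, were near the top of the scale in both groups and were not called (adjusted p = 0.41 and 0.51).

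Complement genes rose in 12 of 29 cases and fell in none, though 3 fell with normexp background correction. The 3 chains of C1q, made mainly by macrophages, moved together: C1qb stood at 11.94, 11.72, 11.64, 11.79 and 11.76 in BDL livers and at 10.34, 10.38, 9.89 and 10.03 in sham livers (1.61 ± 0.18, adjusted p = 6.4e-08), C1qc rose by 1.45 ± 0.18 (adjusted p = 4.1e-07) and C1qa by 1.25 ± 0.24 (adjusted p = 0.00025). Cfp, properdin, rose by 1.15 ± 0.16 (adjusted p = 2.8e-06), and C1s, a protease of the C1 complex, by 1.03 ± 0.15 (adjusted p = 6.3e-06). Clu, clusterin, rose by 0.70 ± 0.15 (adjusted p = 0.00069), and Vtn, vitronectin, was not called (-0.08, adjusted p = 0.74). Coagulation and fibrinolysis gave 4 rises and 3 falls among 28 genes, 25% called against 17.4% of all genes tested. The list had 0 falls with median scaling and 1 rise in the authors' deposited value table. Plat, tissue plasminogen activator, was below background in sham livers and at least 2.79-fold higher in BDL livers (adjusted p = 0.00048). The call of Plat was lost in that table.

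Bile duct genes rose in 11 of 26 cases and fell in 2, with a median of 0.45. With genes below background at their bound the median was 0.16. Only 8 genes rose, with a median of 0.08, in the authors' deposited value table. Krt19, the keratin of cholangiocytes, had 7.71, 8.97, 8.46, 8.84 and 9.0 in BDL livers and 5.35, 5.97, 5.95 and 6.28 in sham livers (2.71 ± 0.37, adjusted p = 1.7e-06). Epcam, an adhesion molecule of cholangiocytes and progenitor cells, had 9.47, 9.88, 9.91, 9.93 and 9.89 in BDL livers and 8.22, 7.32, 8.33 and 8.68 in sham livers (1.68 ± 0.27, adjusted p = 2.3e-05). Both genes were higher in every BDL liver than in any sham liver. Krt8, a keratin of hepatocytes and ducts, rose by 1.88 ± 0.22 (adjusted p = 1.9e-07), Cd24, a progenitor surface marker, by 2.42 ± 0.30 (adjusted p = 3.4e-07), and Anxa4, an annexin of duct cells, by 1.19 ± 0.13 (adjusted p = 8.8e-08). Spp1, osteopontin, was below background in sham livers and at least 1.32-fold higher in BDL livers (adjusted p = 0.021). This call was lost under 3 of 18 settings, among them without BDL replicate 4. Krt7, a second duct keratin looked up after its values were seen, was detected on 1 of 5 BDL arrays and 0 of 4 sham arrays (adjusted p = 0.36). Afp, the fetal albumin, was not called (-0.27, adjusted p = 0.44), Muc1 was below background in both groups, and Sox9 and Cftr were detected on 0 of the 9 arrays. The summed level of the 26 genes was 24877 to 32453 on BDL arrays and 13798 to 15430 on sham arrays.

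Collagens rose in 7 of 15 cases and fell in none, with a median of 0.76, or 0.47 with genes below background at their bound, and only 3 were called in the value table that the authors deposited. Col1a2, a chain of type I collagen, had 10.80, 10.30, 9.99, 10.25 and 10.46 in BDL livers and 8.73, 9.03, 8.37 and 8.48 in sham livers, a 3.26-fold rise (1.70 ± 0.26, adjusted p = 1.1e-05). Its partner Col1a1 was dim, at 5.85, 5.92, 5.92, 5.81 and 5.74 in BDL livers and below background in sham livers, at least 1.05-fold higher (adjusted p = 0.0019). The size of that rise is open above its bound, and the call of Col1a1 was lost in the authors' table. Col3a1 rose by 1.13 ± 0.32 (adjusted p = 0.013), Col6a3 by 1.04 ± 0.25 (adjusted p = 0.0024) and Col18a1, of basement membranes, by 0.86 ± 0.20 (adjusted p = 0.0018). The call of Col3a1 was lost without sham replicate 3 and in the authors' table.

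Among 31 matrix glycoproteins 9 rose and none fell, with a median of 0.46, against 4 rises and a median of 0.09 in the authors' deposited value table. Mgp, matrix Gla protein, rose by 1.89 ± 0.33 (adjusted p = 7.1e-05), Fbln1, fibulin 1, by 1.38 ± 0.22 (adjusted p = 2.5e-05), and Sparc, a collagen-binding protein, by 1.26 ± 0.24 (adjusted p = 0.0002). Fn1, fibronectin, which hepatocytes also make, averaged 13.78 ± 0.27 in BDL livers and 13.81 ± 0.38 in sham livers (adjusted p = 0.96). In matrix turnover 7 of 26 rose and 2 fell, but 1 rose in the authors' table and 0 fell with median scaling. Timp1, the inhibitor of matrix metalloproteinases, had 8.81, 8.43, 9.15, 8.76 and 8.05 in BDL livers and 7.64, 7.24, 7.68 and 7.14 in sham livers (1.22 ± 0.26, adjusted p = 0.00081). Mmp12, the macrophage elastase, and Loxl1, a collagen cross-linking enzyme, were below background in all sham livers and at least 2.01-fold and 1.28-fold higher in BDL livers (adjusted p = 0.0058 and 0.001), and neither call was kept in the authors' deposited value table.

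Stellate cell markers gave 4 rises and 1 fall among 15 genes. Vim, vimentin, had 10.77, 10.99, 10.67, 11.04 and 10.25 in BDL livers and 9.53, 9.26, 8.80 and 7.75 in sham livers (1.91 ± 0.29, adjusted p = 1.1e-05), and S100a6, calcyclin, rose by 1.51 ± 0.29 (adjusted p = 0.00028). Gfap, a marker of quiescent stellate cells, was below background in BDL livers and at least 1.2-fold lower there (adjusted p = 0.034), a call lost under 10 settings. Des, desmin, and Tagln, of contractile cells, were not called (0.37 and 0.53, adjusted p = 0.34 and 0.33). Growth factors of the same signalling differed: Pdgfa rose by 1.28 ± 0.26 (adjusted p = 0.00058), Tgfb2 was at least 1.18-fold higher in BDL livers (adjusted p = 0.0049), and Inhbc, the activin C subunit made by hepatocytes, fell by 2.03 ± 0.23 (adjusted p = 9.2e-08).

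Macrophage genes had, of the 45 lists, the second highest share of calls after class II antigen presentation: 25 of 32 rose and 2 fell, with a median of 1.17. Lgals3, galectin 3, was at 11.91, 11.52, 11.21, 11.39 and 11.40 in BDL livers and at 10.17, 9.42, 9.20 and 9.36 in sham livers (1.95 ± 0.23, adjusted p = 2e-07). Vsig4, the complement receptor of Kupffer cells, was at 10.20, 9.99, 9.47, 9.59 and 9.73 in BDL livers and at 8.42, 8.24, 7.41 and 8.39 in sham livers (1.68 ± 0.23, adjusted p = 1.8e-06). Cd68, a lysosomal protein of macrophages, rose by 1.43 ± 0.20 (adjusted p = 3.1e-06). Marco, a scavenger receptor, rose by 1.83 ± 0.47 (adjusted p = 0.0057), Ctss, the cathepsin of antigen processing, by 1.47 ± 0.18 (adjusted p = 2.9e-07), and Hmox1, heme oxygenase, by 2.07 ± 0.33 (adjusted p = 2.2e-05). The 2 falls of this list were Cd14 and Plin2, given above. Of the 5 members not called, Ctsd, Mrc1, Fcgr2b and Trem2 had the highest means. The summed level of the list was 29460 to 37079 on BDL arrays and 18899 to 24562 on sham arrays.

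Other leukocytes left weaker traces. Of 7 genes tested in the list of neutrophils and mast cells 4 rose, among them Lcn2, given above with the acute-phase proteins, but the granule genes S100a9, Mpo, Ctsg, Prtn3, Ltf, Camp and Ngp were detected on 0 of the 9 arrays. S100a8, a calprotectin subunit, had 8.48, 7.14, 6.67, 7.22 and 6.75 in BDL livers and 5.27, 6.80, 4.87 and 4.82 in sham livers (1.81 ± 0.45, adjusted p = 0.0042). The groups overlapped through sham replicate 2, and the call was lost in the authors' deposited value table. Itgb2, the common chain of leukocyte integrins, rose by 1.51 ± 0.34 (adjusted p = 0.0016) and Il1b, interleukin 1 beta, by 1.05 ± 0.27 (adjusted p = 0.0063). Of 14 T and NK cell genes 3 rose (Lat, Nkg7 and Ccl5), 21.4% called against 17.4% of all genes tested. Cd3e was detected on 0 of the 9 arrays. Of 5 B cell genes 2 rose (Cd37 and Cd38), of which 0 were called without slide 3, with Ms4a1 detected on 0 of the 9.

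Class II antigen presentation rose in all 7 genes tested, with a median of 1.62 and no overlap of groups for any of them. The list has 18 genes on the array. Those not tested, such as Ciita, Cd80, Cd86 and Cd40, were detected on 0 of the 9 arrays. RT1-Da, the rat counterpart of the HLA-DR alpha chain, was at 12.56, 12.52, 12.75, 12.40 and 12.96 in BDL livers and at 10.54, 10.76, 10.38 and 10.39 in sham livers (2.12 ± 0.23, adjusted p = 4.1e-08). Cd74, the invariant chain that escorts class II molecules, was at 9.48, 9.61, 9.80, 9.61 and 10.05 in BDL livers and at 7.75, 7.86, 7.60 and 8.00 in sham livers (1.91 ± 0.29, adjusted p = 9.2e-06). RT1-Ba rose by 2.35 ± 0.26 (adjusted p = 6.5e-08), RT1-Db1 by 1.62 ± 0.28 (adjusted p = 6.4e-05), Ifi30, the lysosomal thiol reductase, by 1.45 ± 0.20 (adjusted p = 1.5e-06) and Cd83, of activated antigen-presenting cells, by 1.04 ± 0.19 (adjusted p = 0.00015). Ctss is the seventh. Macrophage genes, which carry the same functions, moved with this list, and their part in the result was not tested.

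Of 26 genes of class I presentation and the immunoproteasome 10 rose and none fell. RT1-T24-4 rose by 1.82 ± 0.36 (adjusted p = 0.00035), RT1-M3-1 by 1.27 ± 0.19 (adjusted p = 1.1e-05) and RT1-A3 by 1.18 ± 0.21 (adjusted p = 0.00011), all class I heavy chains whose probes may share transcripts. Tapbp, tapasin, rose by 1.32 ± 0.20 (adjusted p = 9.9e-06) and Psmb8, an immunoproteasome subunit, by 1.01 ± 0.22 (adjusted p = 0.0012). B2m, the common light chain, was near the top of the scale at 15.08 ± 0.06 in BDL livers and 14.94 ± 0.11 in sham livers and was not called (adjusted p = 0.35). Interferon response genes gave 6 rises and 7 falls among 36, with a median of 0.01, but 6 rises and 0 falls with median scaling, with a median of 0.21. Those that rose included known targets of interferon gamma, Gbp2 (1.55 ± 0.40, adjusted p = 0.0063), Gbp5 (at least 1.13-fold, adjusted p = 0.00022) and Cxcl9 (1.43 ± 0.36, adjusted p = 0.004), and Ifitm1 (1.29 ± 0.24, adjusted p = 0.0002). Bst2, tetherin, fell by 0.86 ± 0.22 (adjusted p = 0.0054), and Ifi27 and Ifit1 were not called (adjusted p = 0.63 and 0.82), Ifit1 being below background in both groups.

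**Figure D3:**
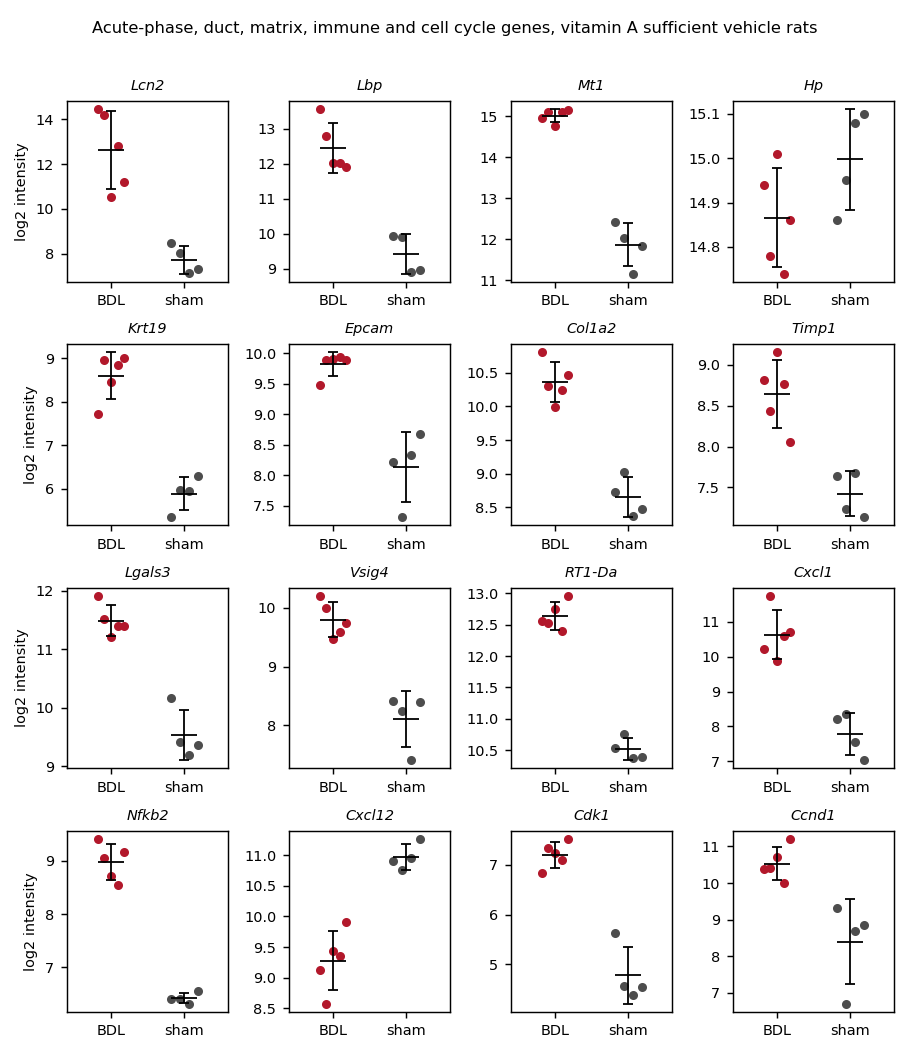
Normalized log2 intensity of 16 acute-phase, duct, matrix, immune and cell cycle genes in each of the 5 BDL livers (red, left) and 4 sham livers (grey, right) of vitamin A sufficient vehicle rats; bars are the mean ± SD, and axes differ between panels. Cxcl12 is lower in every BDL liver, Hp overlaps, and the other 14 are higher in every BDL liver than in every sham liver.

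Chemokines, cytokines and the NF-kappa B genes that control them rose in 23 of 47 cases and fell in 4, with a median of 0.71, or 0.22 with genes below background at their bound. Cxcl1, a neutrophil chemokine, was at 10.23, 11.75, 9.88, 10.60 and 10.71 in BDL livers and at 8.20, 8.35, 7.54 and 7.03 in sham livers (2.85 ± 0.68, adjusted p = 0.0028). Cxcl16, a scavenging ligand of the receptor CXCR6 on T and NK cells, was at 9.81, 9.04, 9.02, 9.75 and 9.84 in BDL livers and at 6.54, 6.37, 6.05 and 6.93 in sham livers (3.02 ± 0.30, adjusted p = 8.6e-09). Both were higher in every BDL liver than in every sham liver. Ccl20 and Cx3cl1, ligands of CCR6 and CX3CR1, were below background in all sham livers and each at least 1.6-fold higher in BDL livers (adjusted p = 0.00061 and 2.1e-05). Tnfrsf12a, the TWEAK receptor, rose by 1.73 ± 0.42 (adjusted p = 0.0033). Outside this list, Ltb, lymphotoxin beta, was at 11.61, 11.37, 9.79, 9.73 and 9.01 in BDL livers and at 5.92, 5.84, 5.24 and 4.95 in sham livers (4.82 ± 0.61, adjusted p = 6.5e-07). Ubd, the ubiquitin-like modifier FAT10, is also outside it and rose by 3.99 ± 0.61 (adjusted p = 1.3e-05). Cxcl12, the chemokine that retains CXCR4-bearing cells, was at 9.13, 8.58, 9.43, 9.35 and 9.91 in BDL livers and at 10.91, 10.76, 10.96 and 11.26 in sham livers, a fall by 1.69 ± 0.27 (adjusted p = 2.5e-05). Ccl3 was below background in both groups.

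Within the NF-kappa B system, Nfkb2, the p100 precursor of the non-canonical pathway, was at 9.41, 9.05, 8.72, 8.55 and 9.16 in BDL livers and at 6.41, 6.40, 6.32 and 6.55 in sham livers (2.56 ± 0.39, adjusted p = 1.3e-05). Nfkbia, the inhibitor that NF-kappa B itself induces, was at 11.72, 12, 11.77, 11.32 and 11.55 in BDL livers and at 9.63, 9.88, 10.37 and 10.37 in sham livers (1.61 ± 0.22, adjusted p = 2.9e-06). Promoters were read from RefSeq for build GRCr8, as the 250 bases before to 50 bases after each gene's start, and searched on both strands for the kappa B motif in its general decamer form. It was found in 7.6% of all 27457 promoters, 9.4% of the 6647 promoters of genes tested, 15.8% of the 716 of genes called higher and 6.8% of the 471 of genes called lower. Of the 21 called rises of the chemokine list with a promoter, 7 held it (33.3%), among them Ccl20, Cxcl1, Nfkb2 and Nfkbia. A match is a description of the letters and no evidence of binding. The windows of Cxcl1 (chr14:17479272-17479571, minus strand), Nfkb2 (chr1:255108124-255108423, plus strand) and Lcn2 (chr3:36081731-36082030, minus strand) are printed because these 3 rises carry the motif, in capitals, at different distances from the start.
Cxcl1: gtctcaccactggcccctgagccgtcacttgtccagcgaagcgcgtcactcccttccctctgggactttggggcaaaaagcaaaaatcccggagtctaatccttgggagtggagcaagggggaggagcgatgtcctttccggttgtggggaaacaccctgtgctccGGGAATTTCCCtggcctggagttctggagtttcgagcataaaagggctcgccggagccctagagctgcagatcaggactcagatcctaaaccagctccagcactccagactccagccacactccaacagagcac
Nfkb2: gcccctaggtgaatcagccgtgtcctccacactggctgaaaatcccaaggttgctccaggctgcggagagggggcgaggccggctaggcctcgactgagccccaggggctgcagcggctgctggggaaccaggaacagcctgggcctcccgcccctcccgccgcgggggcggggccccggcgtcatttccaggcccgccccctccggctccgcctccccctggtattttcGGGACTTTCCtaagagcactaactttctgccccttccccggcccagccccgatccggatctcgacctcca
Lcn2: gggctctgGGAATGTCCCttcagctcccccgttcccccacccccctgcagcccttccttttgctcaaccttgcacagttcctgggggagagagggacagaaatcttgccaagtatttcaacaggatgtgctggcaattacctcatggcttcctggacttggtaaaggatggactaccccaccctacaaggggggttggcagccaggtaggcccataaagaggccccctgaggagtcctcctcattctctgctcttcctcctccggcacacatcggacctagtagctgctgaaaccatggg

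Cell cycle genes rose in 18 of 45 cases and fell in none, with a median of 0.51, or 0.19 with genes below background at their bound. Cdk1, the kinase that drives entry to mitosis, was at 6.83, 7.34, 7.24, 7.11 and 7.52 in BDL livers and at 5.63, 4.57, 4.39 and 4.54 in sham livers, all below background, and was at least 2.7-fold higher in BDL livers (adjusted p = 2.3e-05). Ccnb2, its cyclin partner, was at 6.59, 7.23, 7.36, 7.52 and 7.66 in BDL livers and at 5.89, 6.14, 5.07 and 5.67 in sham livers (1.58 ± 0.35, adjusted p = 0.0014). Sham replicate 1 was the highest sham liver for Cdk1, yet below every BDL liver. Ccnd1, the cyclin of entry to the cycle, was at 10.38, 10.40, 10.70, 9.99 and 11.20 in BDL livers and at 9.33, 6.71, 8.70 and 8.85 in sham livers (2.14 ± 0.46, adjusted p = 0.001). Prc1, of the mitotic spindle midzone, and Cdkn3, a phosphatase of cyclin-dependent kinases, were at least 1.8-fold and 1.7-fold higher in BDL livers (adjusted p = 5.9e-05 and 0.00044). Mcm6, of the replicative helicase, rose by 1.80 ± 0.48 (adjusted p = 0.0077) and Kif11, a spindle motor, by 1.66 ± 0.25 (adjusted p = 8e-06). Mki67 was below background in both groups (adjusted p = 0.41), and Cdk4 was not called (0.09, adjusted p = 0.79).

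Mitotic genes are known for promoters with CCAAT boxes and with the CHR element, whose core is TTTGAA. Searched on both strands, CCAAT stood in 37.7% of all promoters, 38.8% of those of genes tested, 37.0% of those of genes called higher and 43.3% of those of genes called lower. Among the called rises of the cell cycle list with a promoter it stood in 13 of 15 (86.7%). TTTGAA stood in 18.1% of all promoters, 12% of those of genes tested and 7 of those 15 (46.7%). CCAAT was also in 5 of the 7 class II promoters (71.4%). Cdk1 (chr20:19265043-19265342, plus strand) and Ccnb2 (chr8:79981609-79981908, minus strand) each hold 3 CCAAT boxes and 2 TTTGAA, in capitals below, and RT1-Da (chr20:4515165-4515464, plus strand) holds 1 CCAAT box. They are shown to place the boxes of genes that moved together side by side.
Cdk1: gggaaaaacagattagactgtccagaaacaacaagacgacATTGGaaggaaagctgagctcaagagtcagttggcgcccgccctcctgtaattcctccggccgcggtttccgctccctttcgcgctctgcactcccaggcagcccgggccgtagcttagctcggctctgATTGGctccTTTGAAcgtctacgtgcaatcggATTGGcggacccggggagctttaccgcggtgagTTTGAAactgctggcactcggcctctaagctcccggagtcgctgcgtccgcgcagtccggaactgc
Ccnb2: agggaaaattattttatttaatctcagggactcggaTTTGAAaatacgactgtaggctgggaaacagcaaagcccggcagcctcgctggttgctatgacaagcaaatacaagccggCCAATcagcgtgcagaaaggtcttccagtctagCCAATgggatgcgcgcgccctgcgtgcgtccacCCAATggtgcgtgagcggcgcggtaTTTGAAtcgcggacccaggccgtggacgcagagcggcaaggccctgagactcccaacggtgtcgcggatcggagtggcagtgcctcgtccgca
RT1-Da: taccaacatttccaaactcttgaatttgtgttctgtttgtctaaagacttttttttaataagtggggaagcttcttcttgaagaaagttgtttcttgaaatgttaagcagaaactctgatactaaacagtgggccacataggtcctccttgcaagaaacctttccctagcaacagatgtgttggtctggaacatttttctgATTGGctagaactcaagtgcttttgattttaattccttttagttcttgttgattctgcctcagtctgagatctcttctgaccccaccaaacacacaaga

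Cytoskeletal, S100 and annexin genes had rises and no falls, while junction genes had both. Of 34 tubulins, actins and other cytoskeletal genes 21 rose and none fell, and of 14 S100 proteins and annexins 10 rose and none fell, with medians of 0.67 and 1.20. S100a11, a calcium-binding partner of annexins, was at 10.14, 10.78, 10.31, 10.83 and 10.78 in BDL livers and at 7.57, 7.44, 7.11 and 7.61 in sham livers (3.14 ± 0.32, adjusted p = 1.6e-08). Anxa5 rose by 2.62 ± 0.24 (adjusted p = 1.9e-09) and Anxa2 by 2.11 ± 0.25 (adjusted p = 1.6e-07), both membrane-binding annexins. Tubb6, a beta tubulin, rose by 1.49 ± 0.35 (adjusted p = 0.0025) and Cotl1, an actin-binding protein, by 1.19 ± 0.26 (adjusted p = 0.0012). Among 32 junction and adhesion genes 13 rose and 2 fell, and the connexins parted: Gjb2, connexin 26, rose by 1.57 ± 0.26 (adjusted p = 3.1e-05), while Gjb1, connexin 32, fell by 1.26 ± 0.23 (adjusted p = 0.00014). Cldn1, a tight junction claudin, fell by 1.88 ± 0.35 (adjusted p = 0.00016), and Itgb1, the common beta-1 integrin, rose by 1.19 ± 0.16 (adjusted p = 1.5e-06). Lysosomal genes rose in 17 of 33 cases and fell in none, for example Lgmn, legumain, by 1.34 ± 0.17 (adjusted p = 8.4e-07) and Asah1, acid ceramidase, by 1.14 ± 0.22 (adjusted p = 0.00024).

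Metal handling gave 9 rises and 3 falls among 31 genes. Mt1, metallothionein 1, which binds zinc and copper, was at 14.96, 15.12, 14.77, 15.10 and 15.15 in BDL livers and at 12.41, 12.03, 11.16 and 11.84 in sham livers (3.16 ± 0.33, adjusted p = 1.8e-08). The BDL values lie near the highest levels on these arrays, and whether that limits the size of the difference was not tested. Slc11a2, the divalent metal transporter DMT1, rose by 1.56 ± 0.27 (adjusted p = 7.7e-05), Slc40a1, the iron exporter ferroportin, by 0.83 ± 0.15 (adjusted p = 8.6e-05), and Slc39a4, a zinc importer, fell by 1.52 ± 0.27 (adjusted p = 0.00011). Of 38 antioxidant genes 10 rose and 2 fell. Gpx2, the gastrointestinal glutathione peroxidase, was below background in sham livers and at least 5.1-fold higher in BDL livers (adjusted p = 1.2e-09), and Ephx1, the microsomal epoxide hydrolase, rose by 2.12 ± 0.36 (adjusted p = 4.4e-05), while Prdx1, a peroxiredoxin, was not called (0.03, adjusted p = 0.91). The metal response motif, TGCACNC or TGCGCNC on either strand, stood in 25.0% of all promoters, 35.5% of those of genes tested, 34.6% of those of genes called higher and 1 of 5 rises of the metal list with a promoter. The Mt1 promoter (chr19:10832926-10833225, minus strand) holds it 6 times, in capitals here.
Mt1: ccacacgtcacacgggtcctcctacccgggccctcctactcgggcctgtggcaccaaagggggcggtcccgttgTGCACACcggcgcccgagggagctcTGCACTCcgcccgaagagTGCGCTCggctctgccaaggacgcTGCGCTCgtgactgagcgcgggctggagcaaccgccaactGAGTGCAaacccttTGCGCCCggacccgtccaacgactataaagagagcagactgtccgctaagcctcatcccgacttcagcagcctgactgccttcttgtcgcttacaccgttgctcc

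Some large changes fell outside these roles. Tsx, a gene known from testis, was at 10.86, 11.03, 10.72, 11.36 and 11.12 in BDL livers and below background in all sham livers (4.87, 4.83, 4.87 and 4.70), at least 37.9-fold higher in BDL livers (adjusted p = 1.1e-13). Bok, of the BCL-2 family, was at 10.57, 9.79, 9.57, 8.97 and 10.03 in BDL livers and below background in sham livers, at least 16.2-fold higher (adjusted p = 8.6e-11). Pla1a, a phosphatidylserine-specific phospholipase, was at least 11.6-fold higher (adjusted p = 5.8e-15). Neurl3, a ubiquitin ligase, rose by 3.05 ± 0.41 (adjusted p = 1.4e-06), Lgals2, galectin 2, by 2.66 ± 0.29 (adjusted p = 6.4e-08) and Cyyr1, a small membrane protein, by 2.74 ± 0.45 (adjusted p = 3.6e-05). Stac3, a muscle adaptor protein, was below background in BDL livers and at 9.78, 9.20, 12.51 and 11.10 in sham livers, at least 36.2-fold lower in BDL livers (adjusted p = 8.4e-12). Leap2, a ghrelin receptor antagonist made by liver, fell by 1.98 ± 0.42 (adjusted p = 0.00095), Ltc4s, leukotriene C4 synthase, by 2.02 ± 0.40 (adjusted p = 0.00041), and Paqr9 was at least 3.67-fold lower in BDL livers (adjusted p = 2.7e-07).

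The remaining lists ranged widely in their share of calls, against 17.4% of all genes tested. Of 53 cytosolic ribosomal protein genes 0 were called, with a median of 0.09 (Rplp0 0.24 ± 0.12, adjusted p = 0.17), and of 39 respiratory chain genes 3 fell and none rose (7.69% called), Ndufs7 by 0.43 ± 0.11 (adjusted p = 0.0059), and 0 fell with median scaling. Endoplasmic reticulum stress genes gave 1 rise and 5 falls among 28 (0 rises and 1 fall with median scaling), with Atf5, a stress transcription factor, at -1.54 ± 0.28 on the log2 scale (adjusted p = 0.00012) and Hspa5, the chaperone BiP, at 13.56 in both groups (adjusted p = 1). Endothelial genes gave 4 rises and 1 fall among 23 (8 rises with median scaling), Plvap, of fenestral diaphragms, rising by 0.99 ± 0.23 (adjusted p = 0.002) and Lyve1, of sinusoidal endothelium, not called (-0.20, adjusted p = 0.69). Of the list of periportal and pericentral genes 2 of 21 rose and 8 fell (47.6% called). Red cell and platelet genes, 4 tested, gave 0 calls (Hbb 0.40, adjusted p = 0.68, and Pf4 0.53, adjusted p = 0.25). Among 4 genes of pancreas, adipose tissue and mesothelium 2 were called: Msln, mesothelin, rose by 2.32 ± 0.44 (adjusted p = 0.00024) and Cela1, an elastase, fell by 1.29 ± 0.36 (adjusted p = 0.011).

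The same 2 operations were measured in other VAS rats, 5 BDL and 4 sham, that received VITA in place of vehicle, and the 2 comparisons share no array. In VITA rats 2357 genes were called (25.3%), 1349 higher and 1008 lower. Of the 1617 calls of vehicle rats, 1249 (77.2%) were called in the same direction in VITA rats, which is 53.0% of the VITA calls, and 2 in the opposite one. The sign was the same for 1592 of the 1617 (98.5%). The difference between the 2 ligation effects passed the test for 0 of 9314 genes by limma, with 393 genes at an unadjusted p below 0.05 and a lowest adjusted p of 0.28, and no alternative gave more than 1 call. For Cyp7a1 the VITA effect minus the vehicle effect was -1.39 on the log2 scale, with a 95% interval of -2.97 to 0.18, and for Lcn2 it was 0.49, with an interval of -1.57 to 2.56. For Abcg5 the interval was 0.70 to 3.21 and for Cxcl1 -3.99 to -0.04 (adjusted p = 1 for each of these 4). Differences of more than 2-fold thus lie inside the intervals of single genes.

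**Figure D4:**
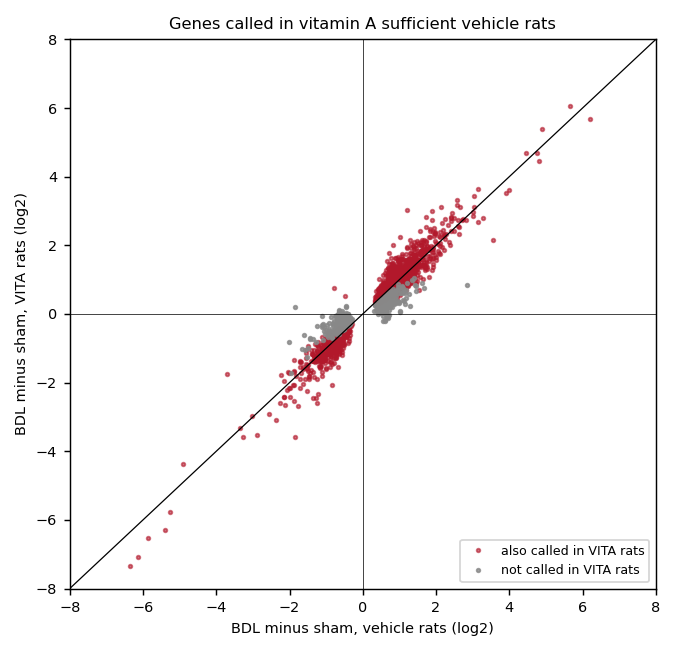
Log2 difference BDL minus sham in VITA rats (vertical axis) against that in vehicle rats (horizontal axis), both vitamin A sufficient, for the 1617 genes called in vehicle rats; red genes were also called in VITA rats (in either direction) and the line marks equal values. The points follow the line, with 1592 of 1617 of the same sign.

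Ligation was next set against ligation in VAD rats that received vehicle, 5 BDL and 4 sham. The VAS effect minus the VAD effect was called for 738 genes (7.92%), 342 with a positive and 396 with a negative difference. Among the 1617 calls of the VAS comparison it was called for 246 (15.2%). In 129 of these the rise in VAS rats was smaller than the change in VAD rats and in 54 it was larger, and for falls 48 were smaller and 15 larger. With median scaling 489 genes were called, 142 positive and 347 negative.

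Collagen and other matrix genes rose less in VAS rats. Col6a3 averaged 9.10 in VAS BDL, 8.06 in VAS sham, 11.62 in VAD BDL and 7.90 in VAD sham livers (VAS minus VAD effect -2.67 ± 0.35, adjusted p = 5.3e-06). Timp1 averaged 8.64 in VAS BDL, 7.42 in VAS sham, 12.26 in VAD BDL and 8.39 in VAD sham livers (-2.65 ± 0.36, adjusted p = 1.2e-05). The VAS and VAD sham livers lay closer together for these genes than the BDL livers did. Of the 15 collagens tested 13 had a called difference, with a median ligation effect of 0.76 in VAS and 2.35 in VAD rats. Plod2, a collagen lysyl hydroxylase, differed by -2.62 (adjusted p = 1.8e-06) and Fabp4 by -2.93 (adjusted p = 0.00018). Mmp12, Spp1 and Plat were below background in every VAS sham liver, so the sizes of their called differences (adjusted p = 0.0015, 0.001 and 0.00016) are not fixed. Mmp12 averaged 6.78 in VAS BDL and 12.07 in VAD BDL livers, Spp1 6.17 in VAS BDL and 10.07 in VAD BDL livers, and Plat 7.25 in VAS BDL and 10.47 in VAD BDL livers. Of the 7 class II genes 0 had a called difference, with medians of 1.62 in VAS and 1.84 in VAD rats, and 7 of 32 macrophage genes did. Of all genes tested 7.92% had one, and for a list of 7 genes a count of 0 is near that share.

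Cyp8b1 fell by 4.90 in VAS rats and had -0.69 ± 0.71 in VAD rats (adjusted p = 0.46), a difference of -4.20 ± 1.00 (adjusted p = 0.0061). It averaged 7.72 in VAS BDL, 12.62 in VAS sham, 12.43 in VAD BDL and 13.12 in VAD sham livers, so that VAS BDL livers stood apart. Tsx averaged 11.02 in VAS BDL, 4.82 in VAS sham, 7.72 in VAD BDL and 6.38 in VAD sham livers (adjusted p = 7.2e-07). With VAS sham livers below background, the VAS effect exceeded the VAD effect by at least 3.91. Ltb averaged 10.30 in VAS BDL, 5.49 in VAS sham, 7.60 in VAD BDL and 5.88 in VAD sham livers (3.09 ± 0.87, adjusted p = 0.022). Mt1 averaged 15.02 in VAS BDL, 11.86 in VAS sham, 14.82 in VAD BDL and 13.35 in VAD sham livers (1.69 ± 0.47, adjusted p = 0.019).

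The sex-dimorphic P450 genes also differed with the vitamin A state. Cyp2c12 averaged 11.14 in VAS BDL, 8.32 in VAS sham, 13.93 in VAD BDL and 14.12 in VAD sham livers (VAS minus VAD effect 3.02 ± 0.48, adjusted p = 0.0001). By these means the female-type gene was already high in deficient males without ligation, and the difference between the sham groups was not tested here. Cyp2c11 averaged 11.94 in VAS BDL, 13.80 in VAS sham, 6.80 in VAD BDL and 13.26 in VAD sham livers (4.60 ± 0.68, adjusted p = 2.9e-05), a far smaller fall in VAS rats. Cyp3a2 (3.13 ± 0.68, adjusted p = 0.0028), the transferase Gsta5 (2.76, adjusted p = 0.0018) and Mup4l4, another alpha-2u globulin (2.49, adjusted p = 4.6e-05), likewise fell less in VAS rats. Obp3 and Stac3 also had called differences (adjusted p = 0.002 and 0.00019), with sham levels of 11.66 and 10.65 in VAS rats and 7.75 and 6.91 in VAD rats. Stac3 was below background on every BDL array of either diet and Obp3 on every VAD BDL array, so the size of these differences is not fixed. Cfap95 rose by 1.39 ± 0.25 in VAS rats (adjusted p = 0.00011) and fell by 1.24 ± 0.25 in VAD rats (adjusted p = 0.00014). Igfbp2 and Cyyr1 rose in VAS rats and were not called in VAD rats (0.26 and -0.12, adjusted p = 0.71 and 0.86), with called differences of 2.31 and 2.87. The difference of Igfbp2 lost its call under 12 of 27 settings (adjusted p up to 0.11), that of Cyyr1 under 0. Cyp2c7 and Mup5, not called in VAS rats, fell in VAD rats, with called differences of 2.92 and 2.24 (adjusted p = 7.6e-07 and 2.4e-05).

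**Figure D5:**
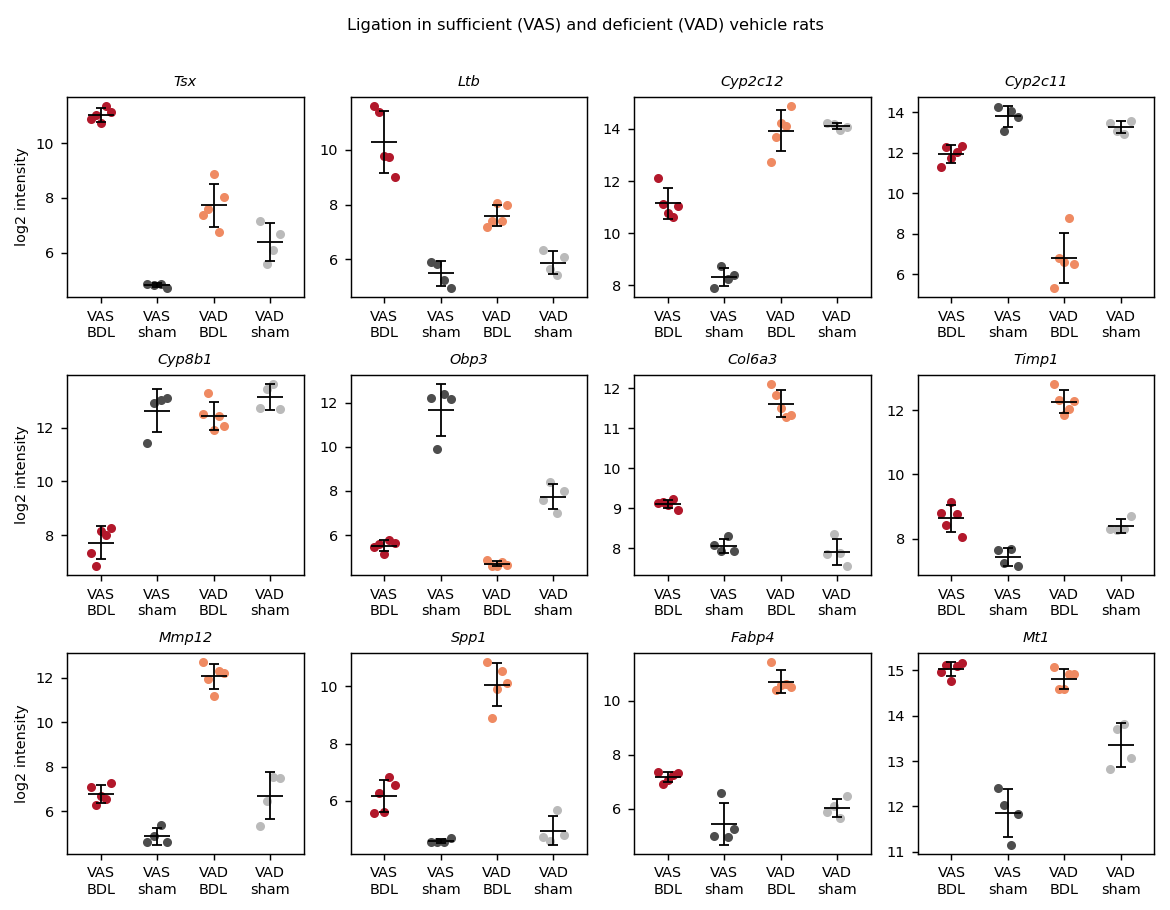
Normalized log2 intensity of 12 genes in the vehicle rats of both vitamin A states, from left to right VAS BDL (n = 5), VAS sham (n = 4), VAD BDL (n = 5) and VAD sham (n = 4); points are livers, bars the mean ± SD, and axes differ between panels. Cyp8b1 is low in VAS BDL livers alone among the 4 groups shown, and Col6a3 and Timp1 are highest in VAD BDL livers.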

How the data were processed

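Liver RNA was hybridised to Illumina RatRef bead arrays. Per the labels' protocols, RNA was extracted with TriReagent and labelled with the TotalPrep kit. The authors deposited, per array, a mean bead intensity and a detection p-value for each of 22523 probes. A second table from the authors, deposited as values, holds normalized intensity with a column median of 212; how it was normalized is not stated in the sources used here, and it served as an alternative only.

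Intensities were background-corrected and quantile-normalized with neqc (offset 16, negative controls inferred from the detection p-values) in limma 3.58.1 (R 4.3.3). A probe was kept with detection p below 0.01 on at least 4 of 36 arrays (9545 probes), and each gene was represented by its brightest probe on average, giving 9314 genes. Symbols were updated through RefSeq tables, which matched 74.7% of probes. lmFit and eBayes fitted 8 group means over all 36 arrays (28 residual degrees of freedom), with a two-sided moderated test and Benjamini-Hochberg adjustment over all genes. The fit was tested on simulated data. Tables were joined with pandas 2.3.3 and drawn with matplotlib 3.10.9 in Python 3.11.15. The 5 BDL and 4 sham arrays limit the precision.

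Called genes undetected on every array of one group got a bound against the lowest detected signal of each array. Genes were named by a rule: the 20 largest called rises and falls, up to 8 called and 4 uncalled members of each of 45 lists (1414 genes, 1024 tested), members below background, and up to 10 genes in each direction of the tests between ligation effects. A few named genes are not reported here. The genes and lists were chosen with earlier results of these data known. Same-numbered BDL and sham arrays had deviations correlated at 0.08, 0.01, 0.17 and -0.01, so no pairing was used in the main fit. The sources used here do not state whether the numbers pair rats, and these correlations cannot decide it. No 2 arrays were identical. Alternatives changed the background step, scaling, filter, probe rule, slide handling and arrays used.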

Additional observations from a re-analysis of the deposited data

Results flagged for a closer look

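Within each group of 4 or 5 livers, the gap between the highest or lowest liver and its nearest neighbour was divided by the whole range of the group and set against Dixon's 95% critical value. Of 454 gene groups checked, 28 had such a far liver, and chance flags about 1 in 20 groups. No explanation was tested for any of them. Among BDL livers, the highest one stood apart for Onecut1 (0.760, replicate 1, at 9.50 against 8.31 for the nearest liver), Mgst1 (0.713, replicate 5, at 15.02 against 14.65 for the nearest liver), Fbln1 (0.777, replicate 5, at 7.88 against 7.38 for the nearest liver), Ubd (0.745, replicate 4, at 14.35 against 13.68 for the nearest liver), Gpx2 (0.716, replicate 1, at 8.76 against 8.07 for the nearest liver) and Krt7 (0.768, replicate 4, at 5.93 against 5.23 for the nearest liver). Among BDL livers, the lowest one stood apart for Cyp27a1 (0.719, replicate 1, at 12.48 against 12.84 for the nearest liver), Acot8 (0.712, replicate 2, at 7.41 against 7.63 for the nearest liver), Gstm3 (0.712, replicate 1, at 6.24 against 7.36 for the nearest liver), Fabp1 (0.751, replicate 5, at 13.56 against 14.49 for the nearest liver), Vtn (0.775, replicate 5, at 14.66 against 14.99 for the nearest liver), Epcam (0.887, replicate 1, at 9.47 against 9.88 for the nearest liver), Fn1 (0.71, replicate 5, at 13.32 against 13.81 for the nearest liver) and Il1b (0.869, replicate 5, at 6.57 against 7.54 for the nearest liver). Among sham livers, the highest one stood apart for Oat (0.833, replicate 3, at 12.14 against 11.05 for the nearest liver), Spp1 (0.959, replicate 4, at 4.70 against 4.57 for the nearest liver), Ccl20 (0.862, replicate 4, at 5.05 against 4.52 for the nearest liver), Cdk1 (0.854, replicate 1, at 5.63 against 4.57 for the nearest liver) and Cdkn3 (0.897, replicate 2, at 5.04 against 4.76 for the nearest liver). Among sham livers, the lowest one stood apart for Cyp8b1 (0.9, replicate 1, at 11.42 against 12.92 for the nearest liver), Ch25h (0.903, replicate 1, at 4.51 against 4.63 for the nearest liver), Onecut1 (0.895, replicate 2, at 8.63 against 10.66 for the nearest liver), Obp3 (0.915, replicate 2, at 9.89 against 12.17 for the nearest liver), Sult1e1 (0.875, replicate 2, at 13.81 against 14.13 for the nearest liver), Vtn (0.839, replicate 4, at 14.85 against 15.10 for the nearest liver), Prc1 (0.848, replicate 2, at 4.55 against 4.86 for the nearest liver), Leap2 (0.908, replicate 1, at 13.40 against 13.59 for the nearest liver) and Gsta5 (0.901, replicate 2, at 13.55 against 13.89 for the nearest liver).

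A second set of results stood out because the ligation effect differed between VAS and VAD vehicle rats by the test of that difference, which was called for 63 of the 227 genes printed, 52 of them also called after ligation in VAS rats. The values are VAS minus VAD differences of the BDL minus sham effect, on the log2 scale. Among bile acid, transport and metal genes these were Cyp8b1 (-4.20), Ch25h (-1.46), Nr0b2 (3.32), Slc10a1 (1.09), Abcc3 (-1.26) and Mt1 (1.69). Sex-dimorphic and drug-metabolizing genes with a called difference were Cyp2c12 (3.02), Cyp2c11 (4.60), Cyp3a2 (3.13), Cyp2c7 (2.92), Cyp2c22 (-1.65), Obp3 (-3.09), Mup4 (2.28), Mup5 (2.24), Mup4l4 (2.49), Igfbp2 (2.31), Stac3 (-3.64), Gsta5 (2.76) and Ephx1 (1.60). Of the retinoid, lipid and amino acid genes they were Aldh1a1 (1.74), Fabp4 (-2.93), Scd (3.26), Abcg1 (-0.79), Ucp2 (-1.15), Oat (-2.09), Hal (1.24) and Apoa2 (1.98). The matrix, stellate cell and fibrinolysis genes all had negative differences: Col1a2 (-1.78), Col1a1 (-1.60), Col3a1 (-1.97), Col6a3 (-2.67), Mgp (-1.88), Fbln1 (-1.02), Sparc (-1.04), Timp1 (-2.65), Vim (-1.45), Des (-2.30), Tagln (-2.25), Mmp12 (-3.45), Loxl1 (-2.11), Plod2 (-2.62), S100a6 (-2.12) and Plat (-3.41). For duct, structural and cell cycle genes the differences were Cd24 (-2.18), Spp1 (-3.52), Krt7 (-1.19), Anxa2 (-1.70), Tubb6 (-1.79), Cotl1 (-1.54), Gjb2 (1.56) and Ccnb2 (-1.60). For immune genes they were Cd14 (-1.47), Lgals3 (-1.14), Lgmn (-0.92), Cxcl9 (2.23), Ltb (3.09), Ccl3 (-1.82), Pf4 (-2.25) and Ltc4s (-1.93). The remaining genes were Tsx (4.86), Pla1a (1.20), Cyyr1 (2.87) and Cfap95 (2.63). The calls of 39 of the 63 were kept under all of up to 27 settings. Those of 8 were lost under at least 10: Sparc under 17, Hal under 16, Slc10a1 and Fbln1 under 15, Ephx1 under 14, Ccnb2 under 13, Igfbp2 under 12 and Ltc4s under 10. Of the rest, Vim lost its call under 5 settings, Cyp2c22 and Krt7 under 4 and Col1a1 under 2. In 14 of the 63 genes at least 1 of the 4 groups was below background on every array, so the value is not a measured size. It is at least 3.91 for Tsx, at least 0.28 for Pla1a and -1.34 or lower for Ccnb2, and no bound could be set for Ch25h, Obp3, Stac3, Plat, Spp1, Col1a1, Mmp12, Loxl1, Ccl3, Ltc4s and Krt7.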

How the results depend on the processing

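The 1617 calls after ligation in VAS vehicle rats became 1643 with another background correction (normexp), 1575 in the authors' value table, 1400 without the detection filter, 1982 with slide as a block and 1812 without slide 3, where 1388 of the 1617 remained. Leaving out each array in turn gave 1262 to 1520, the lowest without sham replicate 3. With the replicate block the count was 1845, and the same-numbered arrays did not deviate together. In VITA rats the 2357 calls fell to 1446 without slide 3, ranged over 1829 to 2386 with each array left out and were 2542 with the replicate block. Leaving out slide 3 leaves fewer arrays in the fit. The VITA minus vehicle difference had 1 call with slide as a block and 0 to 1 with each array left out. The VAS minus VAD difference had 738 calls, 489 with median scaling, 546 to 757 with each array left out and 852 with the replicate block. Of 178 printed genes called, 152 kept the call under every setting; over 5778 combinations of gene and setting 5513 kept direction and side of the threshold, 251 lost the call, 13 gained one and 1 reversed: the VAS minus VAD difference of Pla1a, -0.27 (adjusted p = 0.58) in the authors' value table; the cause was not tested. In that table the fold change of 81 called genes was smaller by a factor of over 1.5, and with normexp that of 43. Obp3 reached -6.71 without sham replicate 2 and Stac3 -5.24 without sham replicate 3. Signal over background limits the genes given as bounds.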
